A study of Mus musculus with 4 samples.

Results

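The genes described here encode the proteasome and the molecular chaperones of mouse embryonic stem (ES) cells that lack part or all of the transcription factor FosB. Members were taken by symbol among the probes annotated with a single gene: Psma, Psmb, Psmc, Psmd and Psme for the proteasome, and Cct followed by a digit, Hspa, Hspb, Hspd, Hspe, Hsph, Hsp90, Dnaja, Dnajb and Dnajc for the chaperones. This gave 66 genes on 74 probes, of 6025 genes measured in all, with 26 proteasome genes and 40 chaperone genes. The rule also took in Psmc3ip, a meiotic recombination factor, Hspb11, an intraflagellar transport protein, and Hspd1-ps3, a pseudogene of the mitochondrial chaperonin Hspd1. A cDNA probe may not tell near-identical copies apart, which applies to Hspd1-ps3 and to Hspa1a with its neighbour Hspa1b.

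The groups were fosBd/d ES cells, a mutant line homozygous for alleles that make ΔFosB (the truncated form of FosB) and no full-length protein, fosB-null ES cells, and the wild-type ES cells against which each mutant was hybridised. All of the cells were kept without feeder cells, and the series title gives 72 h of serum starvation followed by 4 h of serum. Each mutant had 2 arrays, with the mutant in Cy3 on replicate 1 and in Cy5 on replicate 2. As far as the labels say, each genotype was 1 line, and whether the arrays of a swap shared their RNA extracts is not stated, so every p-value here reflects only how far arrays differ, and that difference may be technical. FosB pairs with Jun proteins to form AP-1, a factor that serum induces, and the design asks how RNA levels differ from wild type in each mutant and between the mutants.

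Every value below is a log2 ratio between mutant and wild type on 1 array, or the mean of the 2 arrays of a mutant ± SD, and a ratio carries no level of expression. The direction of the ratios could not be fixed. On fosBd/d replicate 1 and fosB-null replicate 2 the 960 and 551 exact zeros carry a minus sign, a trace of sign reversal, while the 423 and 478 zeros of the other 2 arrays carry none. Columns with the mutant in the same dye pair 1 array with such zeros and 1 without. They were anticorrelated over probes, r = -0.463 between the mutants' replicates 1 and r = -0.369 between their replicates 2. The 2 arrays with minus-signed zeros correlated at 0.336, and the 2 arrays without them at 0.326. Taken by dye name, with Cy5 on top, positive fosBd/d values are higher in the mutant and positive fosB-null values are lower in it. If every array was written as mutant over wild type, positive fosB-null values are higher in the mutant too, and the colours that the labels attach to the dyes would turn fosBd/d. Positive fosBd/d values are therefore described as likely higher in the mutant, fosB-null values are given by sign alone, and the difference between mutants is given in 2 readings, with the fosB-null sign kept and with it turned. The spread over all probes was wider in fosBd/d (SD of 0.824 and 0.652) than in fosB-null (0.436 and 0.542), and within a swap the arrays correlated at -0.125 in fosBd/d and -0.318 in fosB-null. Fosb itself had 0 single-gene probes, so the targeted gene is not analysed here.

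The proteasome is the protease that degrades ubiquitin-tagged proteins. Its 20S core is a barrel of alpha and beta subunits with the active sites inside, and its 19S cap binds ubiquitin chains, unfolds the substrate with a ring of ATPases and feeds it into the core. Chaperones bind unfolded protein. Hsp70 proteins do so in cycles that J proteins (Dnaja, Dnajb, Dnajc) start and exchange factors such as the Hsp110 proteins end, while the CCT ring folds actin and tubulin in a closed chamber. Cells raise cytosolic chaperones through heat shock factors that bind the heat shock element, and chaperones of the endoplasmic reticulum (ER) through a separate response whose factors bind the ER stress element. Human ES cells are known for high proteasome activity.

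The promoters of 5 chaperone genes are shown because they carry the elements of these separate responses. The genes are 3 ER chaperones on the positive side in fosBd/d, and 2 of the 3 chaperones with an unadjusted limma p under 0.05 in fosB-null. The remaining one, Dnajb1, had no match to the heat shock element. They come from RefSeq on build GRCm38.p6 and span 250 bases before to 50 bases after the transcription start, 5′ to 3′ on the strand of the gene. In the first set, of ER chaperones, capitals mark the ER stress element, searched on both strands as CCAAT and CCACG with 9 unspecified bases between them. Hspa5 lies at chr2:34771840-34772139 on the plus strand, Hsp90b1 at chr10:86705395-86705694 on the minus strand and Dnajc3 at chr14:118937682-118937981 on the plus strand.
Hspa5: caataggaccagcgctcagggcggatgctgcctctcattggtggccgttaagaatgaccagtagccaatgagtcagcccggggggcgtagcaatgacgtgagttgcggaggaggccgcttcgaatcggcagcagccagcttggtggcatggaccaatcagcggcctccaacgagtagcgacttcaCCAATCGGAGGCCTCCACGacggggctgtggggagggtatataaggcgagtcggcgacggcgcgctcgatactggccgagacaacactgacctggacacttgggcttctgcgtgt
Hsp90b1: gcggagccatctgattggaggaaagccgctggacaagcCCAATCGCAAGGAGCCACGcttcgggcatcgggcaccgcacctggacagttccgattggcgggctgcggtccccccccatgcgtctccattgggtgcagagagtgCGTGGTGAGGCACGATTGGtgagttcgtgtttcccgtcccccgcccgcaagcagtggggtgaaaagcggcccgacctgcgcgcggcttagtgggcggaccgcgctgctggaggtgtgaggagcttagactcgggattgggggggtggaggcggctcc
Dnajc3: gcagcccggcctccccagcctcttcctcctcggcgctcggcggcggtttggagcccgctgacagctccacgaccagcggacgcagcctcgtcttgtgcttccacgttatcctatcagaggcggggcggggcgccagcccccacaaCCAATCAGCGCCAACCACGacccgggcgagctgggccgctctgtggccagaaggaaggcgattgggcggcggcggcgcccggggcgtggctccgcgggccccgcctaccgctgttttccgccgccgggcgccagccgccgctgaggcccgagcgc

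In the set of heat shock genes, capitals mark the heat shock element, searched as GAA and TTC with 2 unspecified bases between them, which reads the same on both strands. Hspa1a lies at chr17:34972107-34972406 on the minus strand and Hspe1 at chr1:55087898-55088197 on the plus strand.
Hspa1a: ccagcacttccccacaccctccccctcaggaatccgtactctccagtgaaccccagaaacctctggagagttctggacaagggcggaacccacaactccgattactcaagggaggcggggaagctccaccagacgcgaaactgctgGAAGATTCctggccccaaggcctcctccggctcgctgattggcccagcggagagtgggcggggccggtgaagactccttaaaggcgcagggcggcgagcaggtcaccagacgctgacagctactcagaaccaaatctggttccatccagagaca
Hspe1: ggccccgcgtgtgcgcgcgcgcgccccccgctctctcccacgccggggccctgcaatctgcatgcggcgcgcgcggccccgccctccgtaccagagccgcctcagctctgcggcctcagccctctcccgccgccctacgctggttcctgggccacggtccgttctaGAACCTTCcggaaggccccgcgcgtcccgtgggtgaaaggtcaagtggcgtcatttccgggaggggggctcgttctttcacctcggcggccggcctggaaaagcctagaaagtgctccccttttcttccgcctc

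Promoters were found for 51 of the 66 members. The ER stress element was found in 37 of 27025 genes with a promoter (0.137%), in 0 of 20 proteasome genes and in 3 of 31 chaperone genes, which were Hspa5, Dnajc3 and Hsp90b1. The heat shock element was found in 9.04% of all genes, in 0 of 20 proteasome genes and in 6 of 31 chaperone genes (Dnaja1, Dnaja4, Dnajb6, Hspa1a, Hspe1 and Hsph1). The AP-1 site, searched as TGANTCA on both strands, was found in 8.97% of all genes and, among members, in Psmd9, Cct5 and Hspa5. The CCAAT box alone, which is also the start of the ER stress element, was found in 41.1% of all genes, in 9 of 20 proteasome genes and in 15 of 31 chaperone genes. A match is a run of letters, and a missing match says only that these letters are not in this window.

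In fosBd/d cells, 3 chaperones of the ER lumen lay on the positive side on both arrays, likely higher in the mutant, while the chaperones as a class were centred near 0. Hspa5 (BiP, the Hsp70 of the ER) stood at 1.08 and 0.83, a mean of 0.95 ± 0.18 or 1.93-fold (limma adjusted p = 0.199). Dnajc3, a J protein that works with BiP and restrains kinases that halt translation, stood at 0.80 and 1.12, a mean of 0.96 ± 0.22 or 1.95-fold (limma adjusted p = 0.200). Hsp90b1 (Grp94, the Hsp90 of the ER) stood at 0.53 and 0.64, a mean of 0.58 ± 0.07 (limma adjusted p = 0.214). For each of these genes the gap between arrays was small beside the mean, and none passed limma over all genes. Among the members with a promoter, the same genes were the ones with an ER stress element. Their promoters were printed above for that reason, and the part of the element in these ratios was not tested. Against wild type in fosB-null, the same array order gave -0.38 and 0.19 for Hspa5, -0.01 and 0.09 for Dnajc3, and -0.09 and -0.07 for Hsp90b1, all nearer to 0. Both mutants' ratios share the wild-type cells, so these are not independent comparisons.

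The remaining ER chaperones did not follow them. Dnajb9, a J protein of the ER lumen that aids the removal of misfolded proteins, stood at -0.44 and 0.18 in fosBd/d and at 0.50 and -0.40 in fosB-null, on both sides of 0 in each mutant. Dnajc1, a J protein of the ER membrane, stood at -0.01 and 0.33 in fosBd/d, and its probes were on opposite sides there, at means of -0.10 and 0.41. The median of the 5 genes grouped as ER chaperones was 0.58 in fosBd/d and 0.04 in fosB-null. This grouping was made after the values were seen. Dnajc14, at -0.48 and -0.03 in fosBd/d, and Dnajc25, at 0.50 and 0.36, were grouped with other class C J proteins. The median therefore holds for these 5 genes only.

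**Figure D1:**
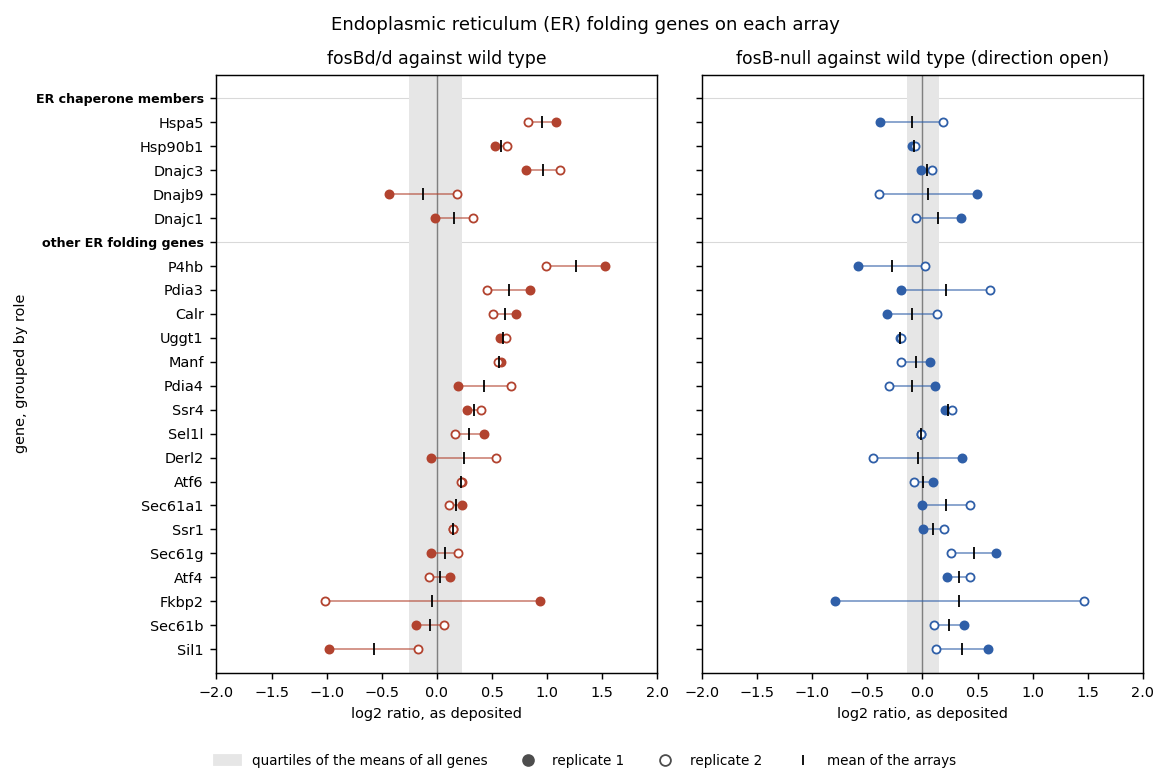
Log2 ratio on each array (x axis) for the 5 ER chaperone members and 17 listed genes of ER folding and its stress response (y axis). The panels show fosBd/d on the left and fosB-null on the right. Filled and open circles are replicates 1 and 2, ticks are means, and the grey band spans the quartiles of all 6025 gene means. In fosBd/d, Hspa5, Dnajc3 and P4hb lie at 0.80 or above on both arrays, and in fosB-null most means lie close to 0.

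Other genes were described from a list of 38 genes of ER folding and its stress response, of which 17 were measured. Not all of them are folding genes, so the counts below are those of the mixed list. Its stress response factors Atf4 and Atf6 stood at 0.12 and -0.07, and at 0.22 and 0.21, in fosBd/d. In fosBd/d 11 were positive and 1 was negative on both arrays, against 25% and 24.2% of all genes. The median was 0.24, against -0.02 over all genes, and by unadjusted limma p under 0.05 the counts were 6 positive and 1 negative, against 12.3% and 7.19% of all genes. In fosB-null 6 were positive and 2 negative on both arrays, with a median of 0.10, against 19.5% and 21.9% of all genes.

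The disulfide isomerase P4hb, which is also a subunit of collagen prolyl hydroxylase, stood at 1.53 and 0.99 in fosBd/d (1.26 ± 0.38, 2.39-fold) and at -0.58 and 0.03 in fosB-null. Pdia3, the isomerase that works with calreticulin, stood at 0.85 and 0.46 in fosBd/d and at -0.19 and 0.61 in fosB-null. Calreticulin, Calr, a lectin chaperone of new glycoproteins, stood at 0.72 and 0.51 in fosBd/d and at -0.32 and 0.13 in fosB-null. These 3 were the highest means of the list in fosBd/d, positive on both arrays there and of mixed sign in fosB-null. Uggt1, which marks misfolded glycoproteins for another round of folding, stood at 0.58 and 0.63 in fosBd/d and at -0.20 and -0.20 in fosB-null. The lowest was Sil1, the exchange factor of BiP, at -0.98 and -0.17 in fosBd/d, while it stood at 0.59 and 0.12 in fosB-null. Of the list, 0 genes passed limma in either mutant.

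Markers of extraembryonic endoderm, a cell type that secretes basement membrane in bulk, were also on the positive side in fosBd/d. Of 22 markers 16 were measured, and in fosBd/d 14 were positive and 0 negative on both arrays, against 25% and 24.2% of all genes. Their median was 1.93 on replicate 1 and 1.63 on replicate 2 (1.74 over the means, range 0.38 to 2.57), while in fosB-null it was -0.18, with 2 positive and 8 negative, against 19.5% and 21.9% of all genes. Of the defining regulators, Gata6 stood at 1.95 and 1.55 and Foxa2 at 1.65 and 1.81 in fosBd/d, and Sox17 at 2.83 and -1.95. Of 17 ES cell markers 7 were measured, with medians of -0.52 in fosBd/d (2 positive, 4 negative) and -0.19 in fosB-null (1 positive, 5 negative), beside the same shares of all genes. Of 12 feeder fibroblast markers 8 were measured. Their medians were 0.18 in fosBd/d (4 positive, 2 negative) and -0.44 in fosB-null (0 positive, 5 negative), beside the same shares of all genes. In fosB-null 3 of them were negative at 1.5-fold or more on both arrays, against 0.564% of all genes. The part of these cell types in the ER result was not tested, and in bulk RNA more cells of a type and more RNA per cell cannot be told apart.

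Over all 40 chaperone genes in fosBd/d, the median was -0.01 with quartiles of -0.23 and 0.16, against -0.02 with quartiles of -0.25 and 0.22 over all genes. On both arrays 9 were positive and 12 negative, against 25% and 24.2% of all genes. With 1.5-fold or more on each array as the limit, there were 3 positive (Hspa5, Dnajc3 and Hspa2) and 0 negative, against 3.87% and 1.18% of all genes. In limma 0 passed, as 0% of all genes did, and 5 positive and 5 negative had an unadjusted p under 0.05, against 12.3% and 7.19% of all genes. Without the dye term 3 chaperones had such a p, and with 1 array left out 1 to 4 did.

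**Figure D2:**
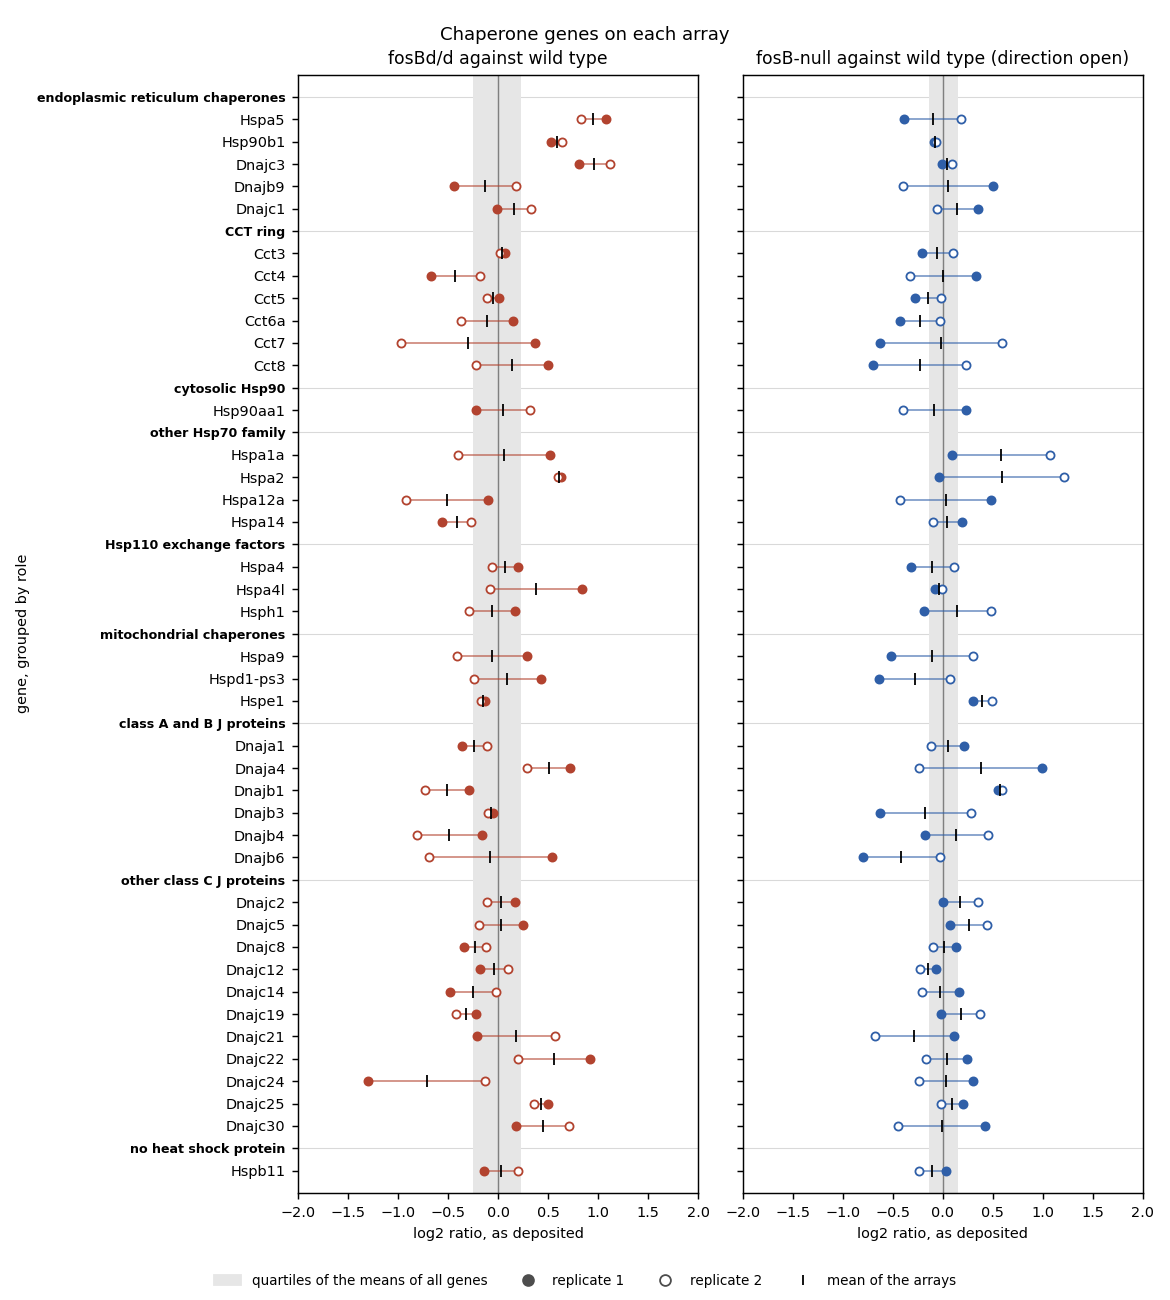
Log2 ratio on each array (x axis) for the 40 chaperone genes grouped by role (y axis), with fosBd/d on the left and fosB-null on the right; filled and open circles are replicates 1 and 2, ticks are means, and the grey band spans the quartiles of all gene means. Hspa5, Dnajc3 and Hsp90b1 lie right of the band on both fosBd/d arrays, as do Hspa2, Dnaja4 and Dnajc25, and Dnajb1 and Hspe1 do so on both fosB-null arrays. Dnajb1 and Hspa14 lie left of the band on both fosBd/d arrays.

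Among the Hsp70 proteins outside the ER and mitochondria, Hspa2, the Hsp70 of male germ cells, stood at 0.63 and 0.60 in fosBd/d (0.61 ± 0.02, 1.53-fold, limma adjusted p = 0.333) and at -0.04 and 1.21 in fosB-null. It was thus even across the fosBd/d arrays and uneven across the fosB-null arrays. Hspa14, which assists folding at the ribosome, stood at -0.56 and -0.28 in fosBd/d (-0.42 ± 0.20). Hspa12a, a distant member of the family, stood at -0.10 and -0.92 in fosBd/d and at 0.48 and -0.43 in fosB-null. The Hsp110 exchange factors Hspa4, Hspa4l and Hsph1 had fosBd/d means of 0.07, 0.38 and -0.06 and fosB-null means of -0.10, -0.04 and 0.15. In none of these 3 did the fosBd/d arrays share a sign, and the 0.38 of Hspa4l rested on 1 probe at 0.84 beside another at -0.08.

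Of the J proteins in the cytosol, Dnajb1 (Hsp40, the main partner of inducible Hsp70) stood at -0.29 and -0.74 in fosBd/d (-0.52 ± 0.31). Dnajb4, a close relative, stood at -0.16 and -0.82, but its probes had fosBd/d means of -0.10 and -0.88. One probe stood at -0.32 and 0.13, and the other at exactly 0 and -1.76. As gene averages, Dnajb1 and Dnajb4 lay on the negative side on each array, but neither Dnajb4 probe did. With Dnajc24, Cct4 and Hspa14, these genes made up the 5 negative members with an unadjusted limma p under 0.05. Dnajc24, which acts in diphthamide synthesis, had the lowest mean of the chaperones, -0.72 ± 0.83, from -1.30 and -0.13. Dnaja4 was the one class A and B member on the positive side on both fosBd/d arrays, at 0.72 and 0.29.

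The other class C J proteins spread around 0, with a fosBd/d median of 0.02 over 11 genes and a range of -0.72 to 0.56. Dnajc22 stood at 0.92 and 0.20, and Dnajc25 at 0.50 and 0.36. Dnajc30, a mitochondrial J protein, stood at 0.18 and 0.71. These were the 3 positive on both fosBd/d arrays, and 4 were negative on both, among them Dnajc19 of the mitochondrial import motor at -0.22 and -0.43 and the splicing-associated Dnajc8 at -0.34 and -0.12.

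The CCT ring was near 0, with a median of -0.08 over 6 subunits in fosBd/d and -0.10 in fosB-null. Cct4 had the lowest fosBd/d mean, -0.43 ± 0.34, from -0.67 and -0.19, and its probes stood at -0.05 and -0.82. Cct3 stood at 0.07 and 0.01 in fosBd/d and at -0.21 and 0.10 in fosB-null. Cct7 differed most between arrays, at 0.37 and -0.97 in fosBd/d and at -0.63 and 0.60 in fosB-null, with the high and the low array exchanged between the mutants. The cytosolic Hsp90aa1 stood at -0.22 and 0.32 in fosBd/d and at 0.23 and -0.40 in fosB-null. The mitochondrial Hsp70 Hspa9 had means of -0.06 in fosBd/d and -0.11 in fosB-null, and Hspd1-ps3 had 0.09 and -0.28.

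In fosB-null the chaperones were centred at 0.01 with quartiles of -0.10 and 0.14, against 0.00 with quartiles of -0.14 and 0.15 over all genes. On both arrays 4 were positive and 6 negative, against 19.5% and 21.9% of all genes, and 0 reached 1.5-fold on both arrays in either direction, against 0.581% positive and 0.564% negative of all genes. In limma 0 passed, and 3 had an unadjusted p under 0.05, all positive (Hspa1a, Dnajb1 and Hspe1), against 3.2% of all genes positive and 3.62% negative. Without the dye term 1 had such a p, and with 1 array left out 0 to 1 did. These 3 encode classical heat shock proteins, and the sign of the ratio does not tell whether the mutant was higher or lower.

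Dnajb1 stood at 0.55 and 0.59 in fosB-null, a mean of 0.57 ± 0.03 or 1.49-fold (limma adjusted p = 0.618), the closest pair of arrays among the 3. Hspe1, the lid of the mitochondrial chaperonin, stood at 0.30 and 0.50 in fosB-null (0.40 ± 0.14, 1.32-fold) and at -0.13 and -0.17 in fosBd/d. Hspa1a, the heat-inducible Hsp70, stood at 0.09 and 1.07 in fosB-null (0.58 ± 0.69) and at 0.52 and -0.40 in fosBd/d. Its probes disagreed: 1 probe stood at 1.07 and 0.92 in fosB-null, and the other at -0.90 and 1.22. The lowest fosB-null mean of the chaperones was that of Dnajb6, a J protein that holds back aggregation, at -0.42 ± 0.54, from -0.80 and -0.03, against 0.54 and -0.69 in fosBd/d.

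The other fosB-null chaperones with 1 sign on both arrays lay closer to 0. Dnajc5, the cysteine string protein of secretory vesicles, stood at 0.07 and 0.44. Among the negative ones, Cct6a stood at -0.43 and -0.02 and Cct5 at -0.28 and -0.02, each with 1 array near 0. Dnaja4 was uneven, at 0.99 and -0.23 in fosB-null, one of the 3 chaperones there with arrays more than 1 apart, beside Hspa2 and Cct7. In fosBd/d the 3 were Cct7, Dnajb6 and Dnajc24.

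Of 32 co-chaperones and regulators of the heat shock response 16 were measured. On both arrays 3 were positive and 3 negative in fosBd/d, with a median of -0.11, against 25% and 24.2% of all genes. In fosB-null 4 were positive and 3 negative, with a median of 0.09, against 19.5% and 21.9% of all genes. Chordc1, a stress-inducible partner of Hsp90, stood at -1.61 and -0.44 in fosBd/d and at 1.25 and 0.22 in fosB-null. Ahsa1, which activates the ATPase of Hsp90, stood at -0.37 and -0.64 in fosBd/d and at 0.27 and 0.72 in fosB-null. They had the lowest means of the list in fosBd/d and the highest in fosB-null. Cryab, the small heat shock protein αB-crystallin, was the highest in fosBd/d at 1.70 and 2.04 (1.87 ± 0.24, 3.65-fold) and the lowest in fosB-null at -0.27 and -0.57. These ratios share the wild-type cells, and the fosB-null direction is unsettled. Of this list 0 passed limma, and by unadjusted p under 0.05 there were 1 positive and 3 negative in fosBd/d, against 12.3% and 7.19% of all genes, and 3 positive and 1 negative in fosB-null, against 3.2% and 3.62%.

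The proteasome showed no common shift in fosBd/d. Its 26 genes had a median of 0.07 with quartiles of -0.16 and 0.30, against -0.02 over all genes, and 7 were positive and 4 negative on both arrays, against 25% and 24.2% of all genes. None reached 1.5-fold on each array in the same direction, 0 passed limma, and 2 had an unadjusted p under 0.05, both positive (Psmc1 and Psmd3), against 12.3% of all genes. Without the dye term 0 had such a p, and with 1 array left out 0 did in 3 of 4 fits. The medians of the single arrays lay on opposite sides, at 0.18 on replicate 1 and -0.14 on replicate 2.

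In fosB-null the proteasome median was -0.02 with quartiles of -0.10 and 0.13. On both arrays 2 were positive (Psma3 and Psmb3) and 1 was negative (Psma6), against 19.5% and 21.9% of all genes. None reached 1.5-fold on both arrays, 0 passed limma, and 0 had an unadjusted p under 0.05. The single-array medians were again on opposite sides, at -0.26 on replicate 1 and 0.20 on replicate 2.

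**Figure D3:**
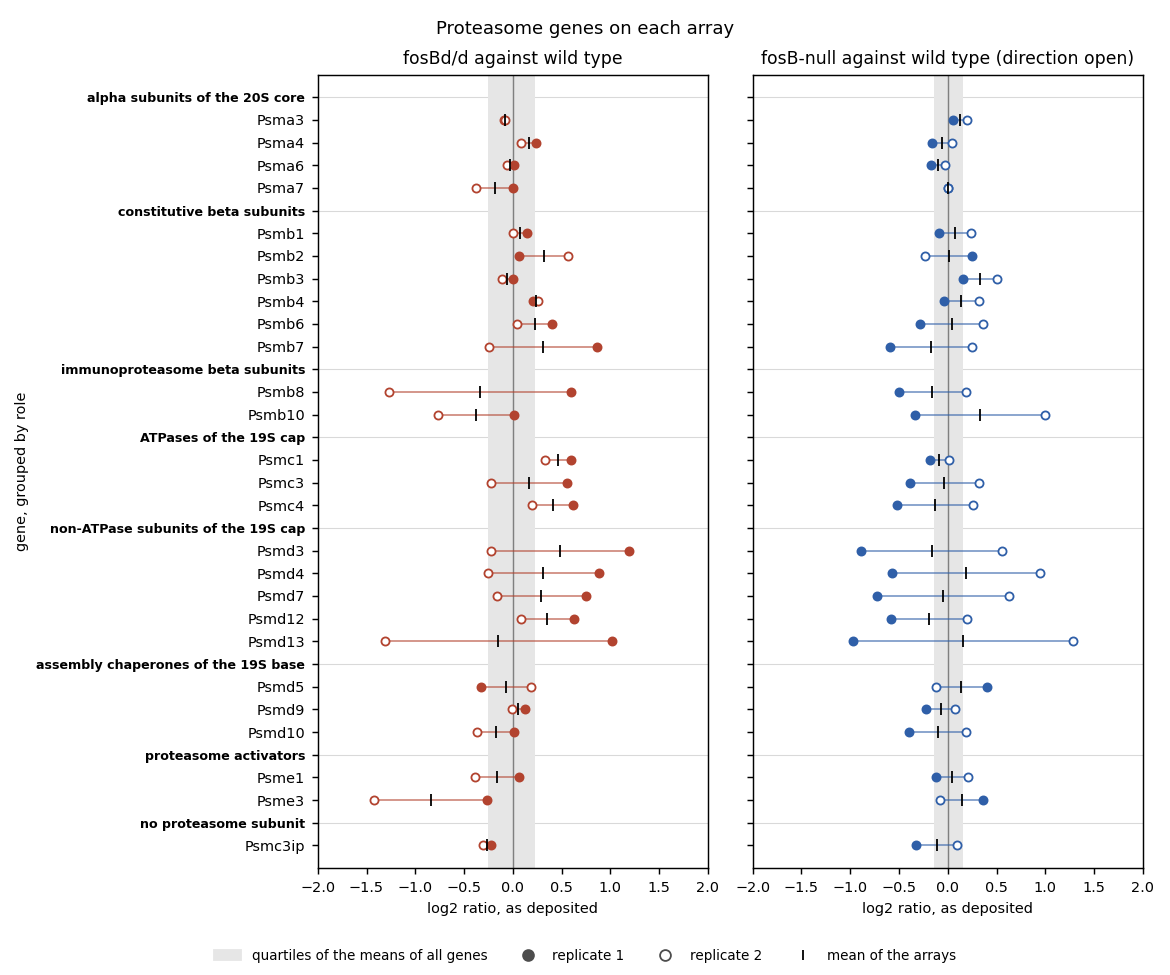
Log2 ratio on each array (x axis) for the 26 proteasome genes grouped by role (y axis), with fosBd/d on the left and fosB-null on the right; filled and open circles are replicates 1 and 2, ticks are means, and the grey band spans the quartiles of all gene means. For the 19S non-ATPase subunits replicate 1 lies right of replicate 2 in fosBd/d and left of it in fosB-null.

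Within the 20S core, the 4 alpha subunits measured lay close to 0, with means of -0.19 to 0.16 in fosBd/d and -0.10 to 0.12 in fosB-null. Psma3 stood at -0.09 and -0.08 in fosBd/d and at 0.05 and 0.19 in fosB-null. Psma7 was listed at exactly 0 on 3 of the 4 arrays and at -0.37 on fosBd/d replicate 2. The 6 constitutive beta subunits, which include the active sites, had a median of 0.23 in fosBd/d and 0.06 in fosB-null. Psmb4 stood at 0.21 and 0.26 in fosBd/d and at -0.04 and 0.32 in fosB-null, and Psmb2 at 0.06 and 0.57 in fosBd/d and at 0.25 and -0.23 in fosB-null. These were not ordered alike across arrays. Psmb3 stood at -0.00 and -0.11 in fosBd/d and at 0.16 and 0.51 in fosB-null, the highest proteasome mean there (0.33 ± 0.25). Psmb7 stood at 0.86 and -0.25 in fosBd/d and at -0.59 and 0.25 in fosB-null. Psmb1 had means of 0.07 in fosBd/d and 0.08 in fosB-null, from probes at -0.02 and 0.17 in fosBd/d. The means of the 6 lay between -0.06 and 0.32 in fosBd/d and between -0.17 and 0.33 in fosB-null.

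The immunoproteasome subunits, which replace constitutive ones after interferon, differed more between arrays than between mutants. Psmb8 stood at 0.60 and -1.27 in fosBd/d and at -0.50 and 0.19 in fosB-null. Psmb10 stood at 0.01 and -0.76 in fosBd/d and at -0.34 and 0.99 in fosB-null. Neither had both arrays on 1 side in either mutant.

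In the 19S cap, the ATPases Psmc1 and Psmc4 had the highest fosBd/d means of proteasome genes that were positive on both arrays. Psmc1 stood at 0.59 and 0.33 in fosBd/d (0.46 ± 0.19, 1.38-fold, limma adjusted p = 0.222) and at -0.19 and 0.01 in fosB-null. Psmc4 stood at 0.62 and 0.20 in fosBd/d (0.41 ± 0.30) and at -0.52 and 0.26 in fosB-null. The ATPase Psmc3 stood at 0.56 and -0.22 in fosBd/d and at -0.39 and 0.32 in fosB-null, without a common sign in either. Psmd12, a non-ATPase subunit of the lid, stood at 0.62 and 0.09 in fosBd/d and at -0.58 and 0.19 in fosB-null.

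The other non-ATPase subunits had wide gaps between the arrays of a swap. Psmd13 stood at 1.02 and -1.31 in fosBd/d and at -0.97 and 1.28 in fosB-null, gaps of 2.33 and 2.25. Psmd3 stood at 1.19 and -0.23 in fosBd/d and at -0.89 and 0.56 in fosB-null. Psmd7 stood at 0.75 and -0.16 in fosBd/d and at -0.72 and 0.63 in fosB-null. These are structural subunits of the cap. Psmd4, a ubiquitin receptor, stood at 0.88 and -0.26 in fosBd/d and at -0.58 and 0.94 in fosB-null. In each, fosBd/d replicate 1 and fosB-null replicate 2 were high and the other arrays low. These are the arrays whose zeros carry a minus sign, with the mutant in Cy3 on the first and in Cy5 on the second. Over the proteasome, 6 genes in fosBd/d and 5 in fosB-null had arrays more than 1 apart, as did 3 chaperones in each mutant. The share of all genes with such a gap was not counted. In fosBd/d the median gap was 0.44 over the proteasome, 0.44 over the chaperones and 0.43 over all genes. In fosB-null it was 0.51, 0.42 and 0.38 in the same order.

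The assembly chaperones of the 19S base (Psmd5, Psmd9 and Psmd10) had medians of -0.07 in fosBd/d and -0.07 in fosB-null. The activators, which open the core without ubiquitin, were Psme1 at means of -0.16 in fosBd/d and 0.04 in fosB-null, and Psme3. Psme3, the nuclear activator PA28γ, stood at 0.36 and -0.08 in fosB-null. It had the lowest proteasome mean in fosBd/d, -0.84 ± 0.82 or 1.79-fold on the negative side (limma adjusted p = 0.322), from -0.26 and -1.43. Most of that mean came from replicate 2. The non-subunit Psmc3ip stood at -0.22 and -0.31 in fosBd/d.

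The fit held a dye term for each gene, whose meaning rests on the unsettled direction of the ratios. It was coded from the arrays with reversed zeros. It is an effect of the channel only if those zeros mark turned signs and the same dye was on top of every unturned ratio. Under that condition, with either dye on top, the mutants' ratios run in opposite directions and the term is an effect of the channel. Coded so, it was negative for 24 of the 26 proteasome genes, with a median of -0.19 and a range of -1.15 to 0.26, against 2952 of 6025 genes negative and a median of 0.01 overall. If every array is mutant over wild type, the dye term was negative for 9 of the 26 and positive for 17, with a range of -0.40 to 0.14. That second coding was chosen after seeing the data. Psmd13 had a dye term of -1.15 in the first coding and -0.02 in the second, and Psmd3 had -0.72 and 0.01.

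In the first coding, 9 negative and 2 positive proteasome genes had an unadjusted limma p under 0.05 for this term, where 23.8% of all genes had such a p in either direction. The 5 non-ATPase subunits of the 19S cap were all among the 9, with a median of -0.67 in the first coding and 0.06 in the second. For the chaperones the term was negative in 22 of 40 in the first coding, with a median of -0.09, and in 20 of 40 in the second. In the first coding it was larger in size than the mutant mean for 16 of 26 proteasome genes in fosBd/d and 22 in fosB-null, for 20 and 27 of 40 chaperones, and for 2500 and 3459 of all 6025 genes. Hspa5, Dnajc3 and Hsp90b1 had dye terms of -0.20, 0.05 and 0.02 in the first coding and 0.08, 0.10 and 0.03 in the second, and the quartiles over all genes were -0.18 and 0.19 in the first.

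The coding also bears on the unadjusted p-values, since it sets what counts as residual spread. With every array taken as mutant over wild type, the members with an unadjusted limma p under 0.05 were 0 proteasome genes and 2 chaperones in fosBd/d, 0 and 0 in fosB-null, and 0 and 0 in the difference. The means and the adjusted calls did not change. The spread that limma shares over genes (prior variance) was 0.275 in this coding and 0.107 without the dye term, against 0.0293 in the main fit. With 1 array left out it was 0.120 to 0.139. The share of all genes with such a p was not counted in these fits, so lower counts are not a result about the members.

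**Figure D4:**
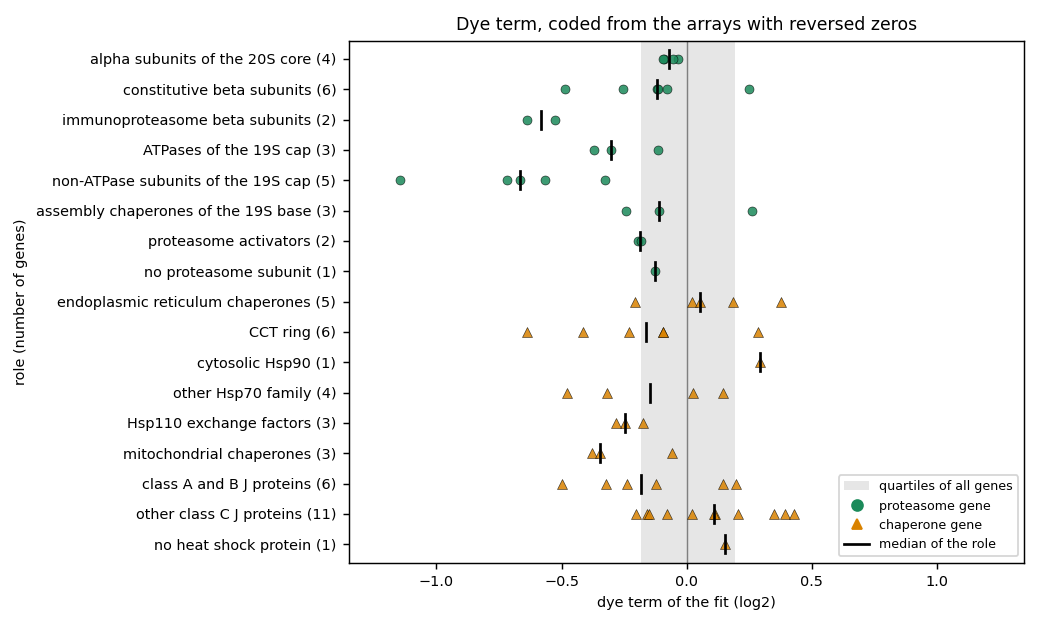
Dye term of the fit (x axis, log2), coded from the arrays with reversed zeros, for each gene, grouped by role with the number of genes (y axis); circles are proteasome genes, triangles chaperone genes, black bars medians of a role, and the grey band the quartiles of all genes. The 19S non-ATPase subunits lie furthest to the left, with a median of -0.67, which is 0.06 if every array is mutant over wild type.

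**Figure D5:**
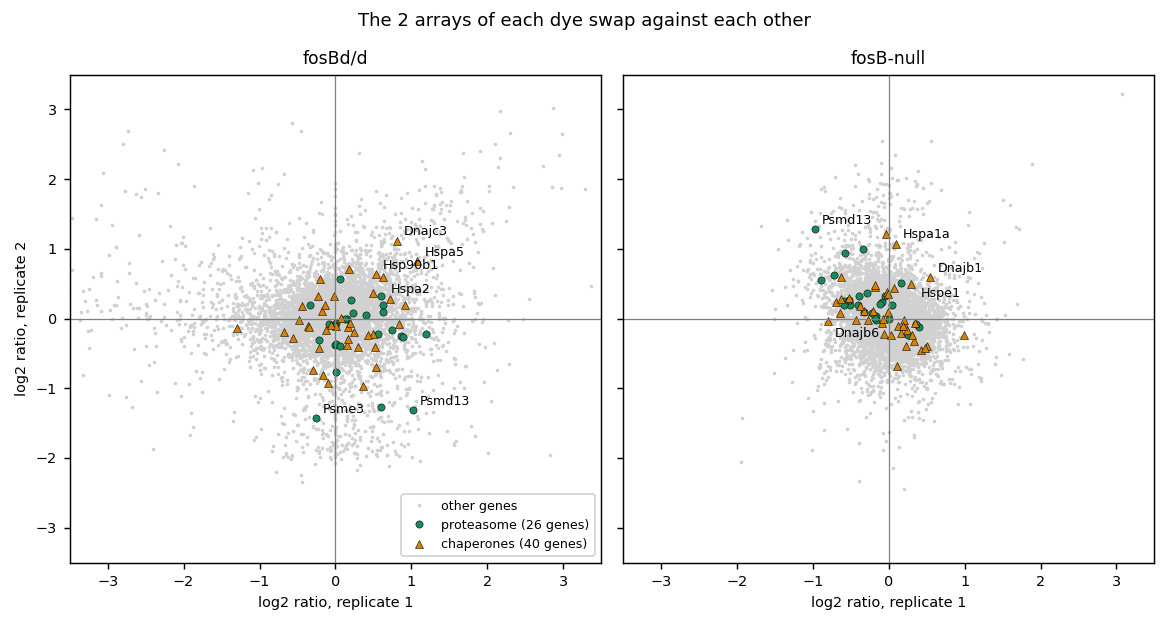
Log2 ratio on replicate 2 (y axis) against replicate 1 (x axis) for fosBd/d (left) and fosB-null (right), with proteasome genes as circles, chaperone genes as triangles and other genes in grey; 23 fosBd/d genes and 0 fosB-null genes lie outside the axes of ±3.5. Hspa5, Dnajc3, Hsp90b1 and Hspa2 lie in the upper right of the fosBd/d panel, and Psmd13 lies where the arrays have opposite signs in both panels.

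Of 47 genes of ubiquitin handling and proteasome assembly 24 were measured. On both arrays 4 were positive and 7 negative in fosBd/d, with a median of -0.04, against 25% and 24.2% of all genes. In fosB-null 7 were positive and 2 negative, with a median of 0.04, against 19.5% and 21.9% of all genes. Ube2h, a ubiquitin-conjugating enzyme, was the highest in fosBd/d at 0.76 and 0.84 (0.80 ± 0.06, 1.74-fold) and stood at 0.02 and -0.12 in fosB-null. Vcp, the ATPase that extracts ubiquitin-tagged proteins from membranes and complexes, stood at 1.06 and -0.11 in fosBd/d and at -0.62 and 0.61 in fosB-null. Its partner Nploc4 stood at 0.97 and -0.07 in fosBd/d and at -0.44 and 0.34 in fosB-null. Vcp and Nploc4 were high on the same arrays as Psmd13 and Psmd3, whereas Ube2h was even over the fosBd/d arrays. Ufd1, from the same list, did not share that order, at -0.14 and -0.44 in fosBd/d and at 0.42 and -0.34 in fosB-null. The conjugating enzyme Ube2e1 was the lowest in fosBd/d, at -0.64 and -0.18, and the highest in fosB-null, at 0.68 and 0.17. Of this list 0 passed limma in either mutant. By unadjusted p under 0.05 there were 4 positive and 1 negative in fosBd/d, against 12.3% and 7.19% of all genes, and 1 positive and 0 negative in fosB-null, against 3.2% and 3.62%.

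Between the mutants, the difference fosBd/d minus fosB-null had a median of 0.09 over proteasome genes and 0.07 over chaperones, against -0.02 over all genes. With the fosB-null sign turned the medians were 0.12 and -0.08. In limma 0 members passed, as 0% of all genes did, and 3 proteasome and 7 chaperone genes had an unadjusted p under 0.05, against 16.7% of all genes. With the sign turned these counts were 0 and 4, against 11.1%. Without the dye term, and with the sign kept, they were 0 and 4, and with 1 array left out 0 to 1 and 0 to 2.

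The SE of a difference comes from the SDs of the mutants' arrays. Hspa5 stood at 1.05 ± 0.31 as deposited and at 0.85 with the sign turned (limma adjusted p = 0.275 and 0.428). Dnajc3 stood at 0.92 ± 0.16 and 1.00 in the same order, and Hsp90b1 at 0.66 ± 0.05 and 0.50. The differences of the 3 ER chaperones were positive under both readings of fosB-null. Their fosB-null means, -0.10, 0.04 and -0.08, were small beside those of fosBd/d, so turning that sign could not reverse them. The colour words of the labels would turn fosBd/d itself. The lowest differences among chaperones were those of Dnajb1 at -1.09 ± 0.22, Dnajc24 at -0.75 ± 0.64 and Dnajb4 at -0.62 ± 0.45. With the fosB-null sign turned, Dnajb1 stood at 0.06, Dnajc24 at -0.68 and Dnajb4 at -0.36, so the value of Dnajb1 hangs on that sign.

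Among proteasome genes the highest differences were those of Psmd3 at 0.65 ± 1.01, Psmd12 at 0.55 ± 0.47 and Psmc1 at 0.55 ± 0.16, and with the sign turned they stood at 0.32, 0.16 and 0.37. The first 2 had an SE close to or above the difference, and Psmd3 stood at -0.06 without fosBd/d replicate 1 and at -0.07 without fosB-null replicate 1. The lowest were those of Psme3 at -0.99 ± 0.62, Psmb10 at -0.71 ± 0.77 and Psmb3 at -0.39 ± 0.18. With the sign turned, Psme3 stood at -0.70, Psmb10 at -0.05 and Psmb3 at 0.28.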

How the data were processed

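RNA was measured on 4 2-colour Agilent cDNA arrays, 2 for each mutant with exchanged dyes. The authors deposited 1 log10 ratio per probe and array, made with Agilent Feature Extraction per the submitters' processing notes. The log base 10 rests on that software's definition of its log ratio, and how background and dye were corrected is not given in the sources used here. The deposited ratios were converted to log2. Intensities were not analysed, and the number of arrays limits the precision.

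Of 9480 probes, 6566 had 1 gene in a platform annotation of 2007, 392 had several and 2522 had none listed. Symbols were updated by identifier through RefSeq (GRCm38.p6) for 6496 probes. Probes of a gene were averaged (8 members had over 1), giving 6025 genes.

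All genes were fitted in limma 3.58.1 (R 4.3.3) on the 4 arrays, with 1 coefficient for each mutant and 1 for the dye, coded from the arrays with reversed zeros. This left 1 residual degree of freedom, and the prior had 1.62. The two-sided p-values were adjusted by Benjamini-Hochberg over all genes, with a threshold of 0.05. The fit was also run on simulated data with noise well below that of these arrays, which checks the code and not the power here. A count without a test took genes with 1.5-fold or more on each array in the same direction. Alternatives were no dye term, arrays left out, the median of probes, exact zeros as missing, scaled arrays, older symbols, all probes, a 2-fold threshold, the fosB-null sign turned and, chosen after seeing the data, the dye term coded with every array as mutant over wild type.

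The members, gene lists and markers were chosen with earlier results of these data known, and the roles were assigned after the values were seen. By class and mutant, array values were given for up to 5 highest and 5 lowest means among members with 1 sign on both arrays, for members whose arrays differed by over 1, for members with probes of opposite sign, and for the 3 highest and 3 lowest differences. From each list the 3 highest and 3 lowest could be named, and Atf4 and Atf6 were added after they were seen. Array values of other members, including Cct3, Cct7, Dnajb9, Dnajc8, Dnajc19, Dnajc25, Dnajc30, Dnaja4, Hspa14, Hsp90aa1, Psma7, Psmb7 and Psmc3, and the markers Gata6, Foxa2 and Sox17, were chosen after they were seen.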

Additional observations from a re-analysis of the deposited data

Results flagged for a closer look

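For 5 of the 66 members, both arrays of fosBd/d lay on 1 side of 0 and both arrays of fosB-null on the other, which holds for 886 of 6025 genes (14.7%). The differences fosBd/d minus fosB-null, as deposited, were -1.09 for Dnajb1, 0.66 for Hsp90b1, -0.55 for Hspe1, -0.20 for Psma3 and -0.39 for Psmb3. The limma test of the difference did not pass for any of them, with adjusted p = 0.275 for Dnajb1, 0.280 for Hsp90b1, 0.288 for Hspe1, 0.482 for Psma3 and 0.339 for Psmb3. With the fosB-null sign turned, the arrays of these genes would lie on the same side in both mutants.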

How the results depend on the processing

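No member passed limma's adjusted threshold in either mutant or in the difference, with the fit as described and under every alternative run. For 43 single-gene results, 438 of the 442 values recomputed under alternatives kept their side of 0. The exceptions were the differences of Psmd3 (-0.0750 to 1.37 with 1 array left out), Psmb3 (0.28 with the fosB-null sign turned) and Dnajb1 (0.0557 with it turned). Much of this was fixed by construction. Members named for 1 sign on both arrays keep that sign when an array or the dye term is dropped, so the count is no measure of robustness. The count at 1.5-fold needs both arrays, so it rises by construction when only 1 is left: to between 4 and 9 proteasome genes in fosBd/d (0 with both), 4 in fosB-null (0 with both), 8 to 10 chaperones in fosBd/d (3 with both) and 5 to 6 in fosB-null (0 with both). At 2-fold, 0 chaperones remained in fosBd/d. With arrays scaled to 1 spread, 1 chaperone reached 1.5-fold in fosB-null, Dnajb1, which stood at 0.55 and 0.59 unscaled. On all probes 1 did, the Hspa1a probe at 1.07 and 0.92 in fosB-null.

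Medians changed sign when 1 array was left out. The proteasome difference ran from -0.160 to 0.249, the proteasome median from -0.137 to 0.177 in fosBd/d and from -0.256 to 0.201 in fosB-null, and the chaperone median in fosBd/d from -0.110 to 0.109. With the fosB-null sign turned, its proteasome median was 0.0168 and its chaperone median -0.00707 by construction, and the chaperone difference was -0.0772. With 1 array left out, the chaperone median in fosB-null ran from -0.0215 to 0.0127 and the chaperone difference from -0.0716 to 0.0336. By unadjusted p under 0.05, the 10 chaperones in fosBd/d became 3 without the dye term and 1 to 4 with an array left out, and the 3 in fosB-null became 1 and 0 to 1. The 2 proteasome genes in fosBd/d became 0 without the dye term and 0 to 2 with an array left out, and the 3 in the difference 0 and 0 to 1. With the dye term coded for every array as mutant over wild type, an alternative chosen after seeing the data, there were 2 chaperones in fosBd/d and 0 members in the other comparisons. Fits without an array had no dye term. Under these alternatives the share of all genes with such a p was not counted, and their prior variances exceeded that of the main fit. Each mutant rests on 2 arrays and the ratios carry no signal over background, so dim members cannot be picked out.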
